A study of Mus musculus with 5 samples.

Results

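The genes described here are Hprt and 9 other genes of purine metabolism: Aprt, Adk, Ada, Pnp, Xdh, Uox, Impdh1, Impdh2 and Gda. Hprt was selected on its measured signal, which in the induced cells and in the neural line was far below that in the fetal liver lines of these same arrays. The others were listed around it by function. Every non-control probe of these genes was taken, by accession or symbol. This gave 10 of 28786 named genes, with 17 of 41174 probes and 26 spots per array. A probe was tested when it was detected, that is well above background, on all arrays of 1 group or more, which 9 of the 10 genes and 14 of the 17 probes were. Uox was not, so values for it are given without a test.

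The series holds 5 one-colour mouse arrays. The hepatic progenitor cell (HPC) group has the lines HB1, from C57BL6J, and HNG2, from STOCK Tg(Nanog-GFP, Puro)1 Yam, both set up from fetal liver at E13.5 of mouse embryonic development. The neural progenitor cell (NPC) array holds NSBAg2, a line made from the embryonic stem cell line BAg73C2, in which beta-geo is knocked in at Afp. The induced hepatic progenitor cells (iHPC), iHep-9F and iHep-10F, are NSBAg2 cells infected with pMXs retroviruses for 9 or 10 transcription factors and harvested after 1 week in G418, which was added 3 weeks after infection. The labels do not name the factors. NPC and both iHPC therefore share 1 parental line and the Afp allele, and the G418 step selects cells that transcribe Afp. Each line or culture was measured on 1 array, and the labels name no repeat cultures of a condition. The p-values thus rest on how far HB1 lies from HNG2 and the 9-factor from the 10-factor cells, and NPC has no replicate.

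Cells obtain purine nucleotides in either of 2 ways. De novo synthesis builds the purine ring on ribose phosphate in a chain of costly steps, and salvage reattaches free bases or rephosphorylates nucleosides. Hprt, which lies on the X chromosome, converts hypoxanthine and guanine to nucleotides; Aprt does the same for adenine and Adk for adenosine. Ada and Pnp strip nucleosides down to bases, Gda and Xdh carry the bases on to urate, and Uox oxidises urate in the rodent liver. Impdh1 and Impdh2 start the branch from inosine monophosphate to guanine nucleotides. The liver is a main site of purine synthesis and export, and Hprt is also widely used as a reference gene for normalising transcript measurements. Cells without the Hprt enzyme survive thioguanine and die in medium with hypoxanthine, aminopterin and thymidine, a selection long used in cell culture.

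Of the 7 hepatic progenitor markers (Alb, Afp, Hnf4a, Krt8, Krt18, Krt19, Epcam), all were well above background on the HPC and iHPC arrays. Of these, 3 were on NPC by at least 1 probe, where Alb, Afp, Krt8 and Krt19 were not; the brightest probe of Hnf4a was not either, and another of its probes was. Of the 7 neural markers, 5 were on NPC, with Olig2 and Pou3f2 missing there, and 3 or 4 on each other array. Their summed signal over the 75th percentile of the array was higher in iHPC, at 7.066 and 8.037, than in NPC, at 5.125. In HPC it was 1.803 and 3.296. Nes was the brightest of them in iHPC, 2.99-fold higher there than in NPC (adjusted p = 0.238 by limma). Of the 5 neural markers tested, 2 were called lower in iHPC than in NPC and 0 higher. The called genes were Sox2, 29.0-fold lower (adjusted p = 0.0338), and Pax6, 3.89-fold lower (adjusted p = 0.0439). The summed signal of 5 mesenchymal markers was 186.9 times the 75th percentile of the array in NPC and 0.147 to 2.295 times on the other arrays. Of 5 blood cell markers 4 had a probe, and their summed signal was 0.274 and 0.285 in HPC, 0.634 and 0.582 in iHPC and 0.427 in NPC. Ptprc, the leukocyte antigen CD45, was well above background on the iHPC arrays only, and was called higher there than in NPC (adjusted p = 0.030 by limma) and HPC (adjusted p = 0.019). It passed the filter only through iHPC, so these p-values rest on readings not well above background elsewhere and are a description. The part of mesenchymal or blood cell genes in the results below was not tested. The share of non-control spots well above background ran from 58.9% to 65.6%, with no saturated spot. HB1 was scanned on the first of 3 days, HNG2 on the second, and both iHPC and NPC on the third. Scan day and cell type cannot be told apart in any comparison with HPC, while iHPC and NPC share their day.

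Several members shared 1 order of levels across the arrays, so the 250 bases before the RefSeq start of 3 genes are printed, 5′ to 3′ on the strand of the gene (assembly GRCm38.p6). They are Hprt (chrX:52987828-52988077, plus strand), whose levels differ most, Aprt (chr8:122576908-122577157, minus strand), a salvage enzyme with the same order of levels, and Uox (chr3:146596899-146597148, plus strand), the member near background on most arrays. Adk, another salvage enzyme, had that order too and is not printed. Capitals mark GGGCGG on either strand, the core letters of a GC box.
Hprt: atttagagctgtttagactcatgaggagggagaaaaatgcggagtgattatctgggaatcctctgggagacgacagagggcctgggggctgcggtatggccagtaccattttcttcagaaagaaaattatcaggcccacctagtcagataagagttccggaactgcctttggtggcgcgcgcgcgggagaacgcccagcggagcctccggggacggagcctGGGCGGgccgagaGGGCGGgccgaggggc
Aprt: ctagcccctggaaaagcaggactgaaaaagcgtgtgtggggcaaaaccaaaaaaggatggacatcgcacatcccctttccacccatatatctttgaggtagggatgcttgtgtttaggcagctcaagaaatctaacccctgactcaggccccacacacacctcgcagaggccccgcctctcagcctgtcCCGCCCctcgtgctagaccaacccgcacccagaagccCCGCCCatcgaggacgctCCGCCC
Uox: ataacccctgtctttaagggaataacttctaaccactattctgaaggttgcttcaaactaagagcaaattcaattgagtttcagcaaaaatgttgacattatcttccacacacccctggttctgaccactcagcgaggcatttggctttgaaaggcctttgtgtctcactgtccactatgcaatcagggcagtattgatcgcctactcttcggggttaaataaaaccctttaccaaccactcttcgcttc
The Hprt window held 2 matches and 17 CpG dinucleotides at 59.6% GC. For Aprt there were 3 matches and 11 CpG at 58.4% GC. The Uox window held 0 matches and 4 CpG at 42.8% GC. Among all 32851 RefSeq promoter windows of this length, 32.7% held at least 1 match and 16.2% at least 2, with a median of 6 CpG and 52.4% GC. Of the 9 members with an entry, Gda also had 0 matches; Ada, Pnp and Impdh2 had 1 each, and the entries of Adk and Impdh1, with 2 starts each, had 2 or 3. A match is a run of letters and no evidence of a bound factor, and these arrays do not measure binding or methylation.

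Hprt was bright in both HPC lines and low in NPC and in both iHPC cultures. A single probe, at chrX:48113832-48113891 on the plus strand (build mm7, NCBI35, as the array files give it), was printed in 10 spots per array, and all 50 readings stood well above background. On the HB1 array the 10 spots read from 105531.8 to 115655.5 in processed signal, with a median of 111042.8. For HNG2 the range was 40228.2 to 51222.7, with a median of 47920.6. The spots of iHPC 9F lay between 381.7 and 441.8 (median 401.8) and those of iHPC 10F between 674.9 and 791.4 (median 728). NPC spots lay between 223.1 and 266 (median 238.8). No spot of any array overlapped with a spot of another. Within an array the SD between spots was 0.0421 to 0.1023 on the log2 scale; spots of 1 array repeat the hybridisation of 1 RNA and are not replicates of a group.

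**Figure D1:**
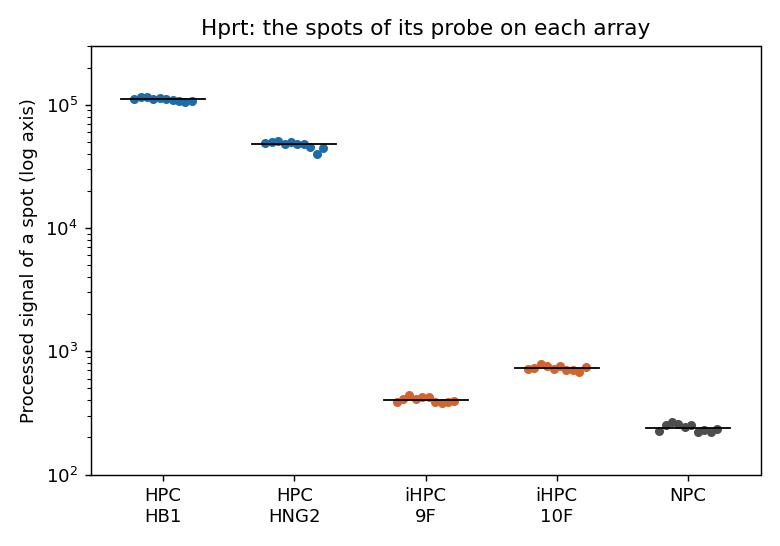
Processed signal (log axis) of the 10 spots of the Hprt probe on each of the 5 arrays. Points are single spots and horizontal lines are medians: 111042.8 and 47920.6 on the HPC arrays, 401.8 and 728 on the iHPC arrays and 238.8 on the NPC array.

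All further levels are given as log2 of the signal divided by the 75th percentile of the same array, and ± gives the SD of 2 arrays. On this scale Hprt was at 6.69 in HB1, 5.79 in HNG2, -0.55 in iHPC 9F, 0.11 in iHPC 10F and -1.33 in NPC. The HPC mean was 6.24 ± 0.64 and the iHPC mean -0.22 ± 0.46 (n = 2 each). The difference between the groups was thus 87.9-fold from HPC to iHPC and 189.9-fold from HPC to NPC. These differences led to the choice of Hprt and are given as a description without a test. Among 19310 genes tested, 15 had a more negative difference than Hprt from HPC to iHPC, and 92 had a more positive difference in HPC over NPC. Over every alternative processing, the log2 difference of iHPC from HPC ran from -6.91 to -6.01 and that of HPC from NPC from 7.12 to 8.02. The array cannot tell fewer cells with the transcript from less transcript per cell. No label gives the Hprt genotype of any line, and whether NSBAg2 carries an altered Hprt gene was not tested.

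Between the iHPC and the line they came from, the difference was smaller. Hprt was higher in both iHPC cultures than in NPC, by 1.11 on the log2 scale, or 2.16-fold, and 5119 genes had a larger absolute difference. Since Hprt was selected for low values in both groups, this too is a description without a test. The gap between the iHPC cultures themselves, -0.55 against 0.11, was smaller than the gap of either to NPC.

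Over the whole comparison of iHPC with NPC, limma called 5.64% of genes (2.80% higher and 2.85% lower in iHPC). Of the 8 tested members other than Hprt 0 were called, and 5 had an unadjusted p under 0.05, as had 24.4% of all genes. The 8 had a median log2 difference of 0.89, against 0.03 for all genes tested. For iHPC against HPC 5.43% of all genes were called (3.55% higher and 1.88% lower in iHPC), and 0 of the 8 (1 at an unadjusted p under 0.05, against 27.6% of all genes), with a median of -0.19 against 0.05 for all genes. For HPC against NPC the calls took 15.7% of all genes (6.68% higher and 8.97% lower in HPC), and 2 of the 8, Aprt and Adk, both higher in HPC (5 at an unadjusted p under 0.05, against 36.4% of all genes). Their median there was 1.26, against -0.03 for all genes. The comparisons share arrays, so their values are set side by side and not combined.

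**Figure D2:**
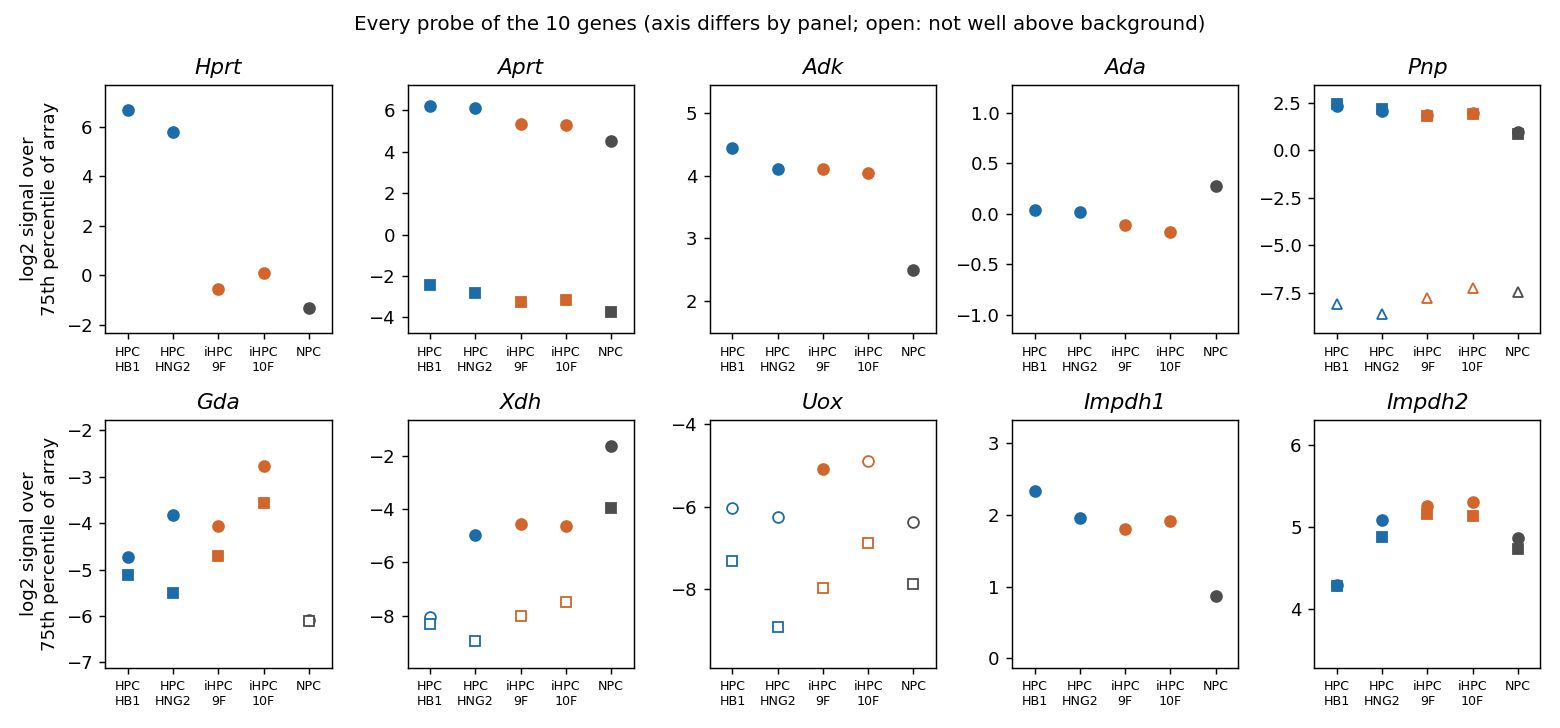
Log2 signal relative to the 75th percentile of the array for every probe of the 10 genes on each array, 1 panel a gene with its own axis; marker shape separates probes of a gene, and open symbols are not well above background. Hprt runs from 6.69 in HB1 to -1.33 in NPC, while Ada stays between -0.18 and 0.27 on all 5 arrays.

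Aprt, the adenine counterpart of Hprt, was highest in HPC and lowest in NPC. Its level was 6.24 in HB1, 6.10 in HNG2, 5.37 in iHPC 9F, 5.29 in iHPC 10F and 4.53 in NPC (probe at chr8:121216746-121216805, minus strand, mm7). The groups did not overlap, and the HPC mean of 6.17 ± 0.09 lay above the iHPC mean of 5.33 ± 0.06. HPC exceeded NPC by 1.64 (SE 0.24), or 3.12-fold, with an adjusted p of 0.0315 by limma. The log2 difference of iHPC from NPC was 0.80 (SE 0.24, adjusted p = 0.163) and that of iHPC from HPC -0.84 (SE 0.19, adjusted p = 0.103), neither past the threshold by limma. A second probe, for the accession M11310, gave the same order of groups at -2.46, -2.82, -3.25, -3.15 and -3.76.

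Adk, which phosphorylates adenosine, separated NPC from all other arrays. It read 4.45 in HB1, 4.11 in HNG2, 4.11 in iHPC 9F, 4.04 in iHPC 10F and 2.49 in NPC (probe at chr14:19107086-19107145, plus strand, mm7). HPC and iHPC lay close together, with a log2 difference of iHPC from HPC of -0.20 (SE 0.22, adjusted p = 0.599 by limma). HPC exceeded NPC by 1.79 (SE 0.27), or 3.46-fold, with an adjusted p of 0.0359. For iHPC over NPC the difference was 1.58 (SE 0.27), with an adjusted p of 0.0691. Without either iHPC array, limma called 0 of all genes for HPC against NPC, and the adjusted p rose to 0.215 for Aprt and 0.204 for Adk. With no filter on dim probes they were 0.0729 and 0.0734.

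Pnp and Impdh1 followed closely similar profiles on the 5 arrays. Pnp, which releases hypoxanthine and guanine from their nucleosides, read 2.30 in HB1, 2.08 in HNG2, 1.87 in iHPC 9F, 1.97 in iHPC 10F and 0.94 in NPC. The difference of HPC from NPC was 1.25 (adjusted p = 0.0557 by limma) and that of iHPC from NPC 0.98 (SE 0.25, adjusted p = 0.133). A second Pnp probe gave 2.43, 2.17, 1.80, 1.87 and 0.86, and the third was not well above background on any array. The near copy of this gene, Pnp2, had no probe here, and signal of it on the Pnp probes was not tested. Impdh1 read 2.32, 1.96, 1.80, 1.91 and 0.87 in the same order of arrays. Its differences from NPC were 1.27 for HPC (SE 0.28, adjusted p = 0.0655 by limma) and 0.99 for iHPC (SE 0.28, adjusted p = 0.157). For both genes the differences between iHPC and HPC, -0.27 and -0.28, were small beside those from NPC.

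Impdh2, the other isoform of inosine monophosphate dehydrogenase, did not share this order. It read 4.30 in HB1, 5.09 in HNG2, 5.25 in iHPC 9F, 5.31 in iHPC 10F and 4.86 in NPC, so that NPC lay between the HPC lines. The HPC difference from NPC was -0.17 (SE 0.43, adjusted p = 0.805 by limma), and its sign turned to 0.23 without HB1 and to 0.14 with median centring. iHPC exceeded HPC by 0.59 (adjusted p = 0.356), by 0.19 without HB1 and by 0.98 without HNG2. Each of the latter fits leaves 1 HPC array, so only the size is given. A second probe ran alongside, from 4.29 in HB1 to 5.16 in iHPC 9F.

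Ada, which deaminates adenosine, varied least among the members. It read 0.04 in HB1, 0.02 in HNG2, -0.11 in iHPC 9F, -0.18 in iHPC 10F and 0.27 in NPC. NPC was the highest array, by 0.42 over iHPC (SE 0.23, adjusted p = 0.365 by limma). The HPC difference from NPC, -0.24, became 0.07 with median centring.

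The enzymes that lead to urate were dim, and each had its own order. Gda, which turns guanine into xanthine, read -4.73 in HB1, -3.83 in HNG2, -4.06 in iHPC 9F, -2.78 in iHPC 10F and -6.09 in NPC, where it was not well above background. Against NPC its signal was at least 4.51-fold higher in iHPC (adjusted p = 0.152 by limma), and the bound for HPC was 2.48-fold (adjusted p = 0.181). With iHPC 9F alone the first bound was 2.89-fold and with iHPC 10F alone 7.05-fold. Such bounds set the bright group against the detection limit of the dim array, or against the reading of the probe there where that is higher. An adjusted p beside a bound comes from the readings themselves, also those not well above background, and not from the bound. The bounds hold for the processed signal only: normexp adds an offset of 50 to every signal, and with it the Gda differences were 1.83-fold and 1.13-fold. The second Gda probe was also below that limit in NPC alone, and was highest in iHPC 10F at -3.56.

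Xdh, which oxidises hypoxanthine and xanthine to urate, was highest in NPC. It read -8.06 in HB1, not well above background, -4.96 in HNG2, -4.55 in iHPC 9F, -4.64 in iHPC 10F and -1.65 in NPC (probe at chr17:72172548-72172607, minus strand, mm7). A second probe was well above background in NPC only, at -3.94. The difference of iHPC from NPC was -2.94 (SE 1.42, adjusted p = 0.319 by limma) and that of HPC from NPC -4.85 (SE 1.42, adjusted p = 0.105). The difference of iHPC from HPC was 1.91 (adjusted p = 0.365). The HPC lines themselves lay far apart, and the size of the differences turned on them. Without HB1 the HPC difference from NPC was -3.30, and that of iHPC from HPC 0.36. That fit leaves 1 HPC array and takes its spread from the iHPC cultures alone, so no p-value is given for it. Without HNG2, Xdh was not measured in HPC, and only bounds are left: at least 20.2-fold lower than in NPC and at least 2.64-fold lower than in iHPC. On all arrays, HPC against NPC passed the threshold with normexp, at -2.29 (adjusted p = 0.0216 by limma), and with the mean of the probes, at -4.77 (adjusted p = 0.0255).

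Uox, the urate oxidase that marks mature rodent hepatocytes, was near the limit on every array. Its brighter probe read -6.03 in HB1, -6.26 in HNG2, -5.09 in iHPC 9F, -4.89 in iHPC 10F and -6.38 in NPC, and only the iHPC 9F reading was well above background. The other probe was not on any array. Level and order of Uox are therefore not measured in these lines.

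The fit for iHPC and NPC depended on the HPC arrays, since 1 spread estimate served all groups and HB1 and HNG2 differed more than the iHPC cultures did. Between HB1 and HNG2 the SD of a gene had a median of 0.374, and between the iHPC cultures 0.105. With the scan day as a block, with only iHPC and NPC in the fit, or without HB1 or HNG2, all genes called rose from 1090 to 6755 and the members called from 0 to 5. The 6755 were among 19310 genes tested, and the 5 among 9 members. These fits take their spread from the iHPC cultures alone and set them against 1 NPC array, so no p-value is given. With scan day as a block, the log2 differences were 0.80 for Aprt, 1.58 for Adk, 0.98 for Pnp and 0.99 for Impdh1. That of Xdh was -2.94. The sizes were the same as without the block, and only the spread estimate changed. Without either iHPC array, 0 genes were called in the whole table, with 2122 and 2125 at an unadjusted p under 0.05.

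The order HPC above iHPC above NPC, with no overlap between groups, held for Aprt, Adk, Pnp and Impdh1, 4 of the 8 tested members other than Hprt. Over all tested genes 14.5% had that order. For Adk it rests on a gap between HNG2 and iHPC 9F smaller than 0.01, and with quantile normalization only Aprt and Pnp kept it beside Hprt. The NPC array was below the other 4 arrays for 5 of the 8, the same genes and Gda, against 30.2% of all genes. Hprt had both patterns, but is left out of these counts because it was chosen for levels far lower in iHPC and NPC than in HPC.

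**Figure D3:**
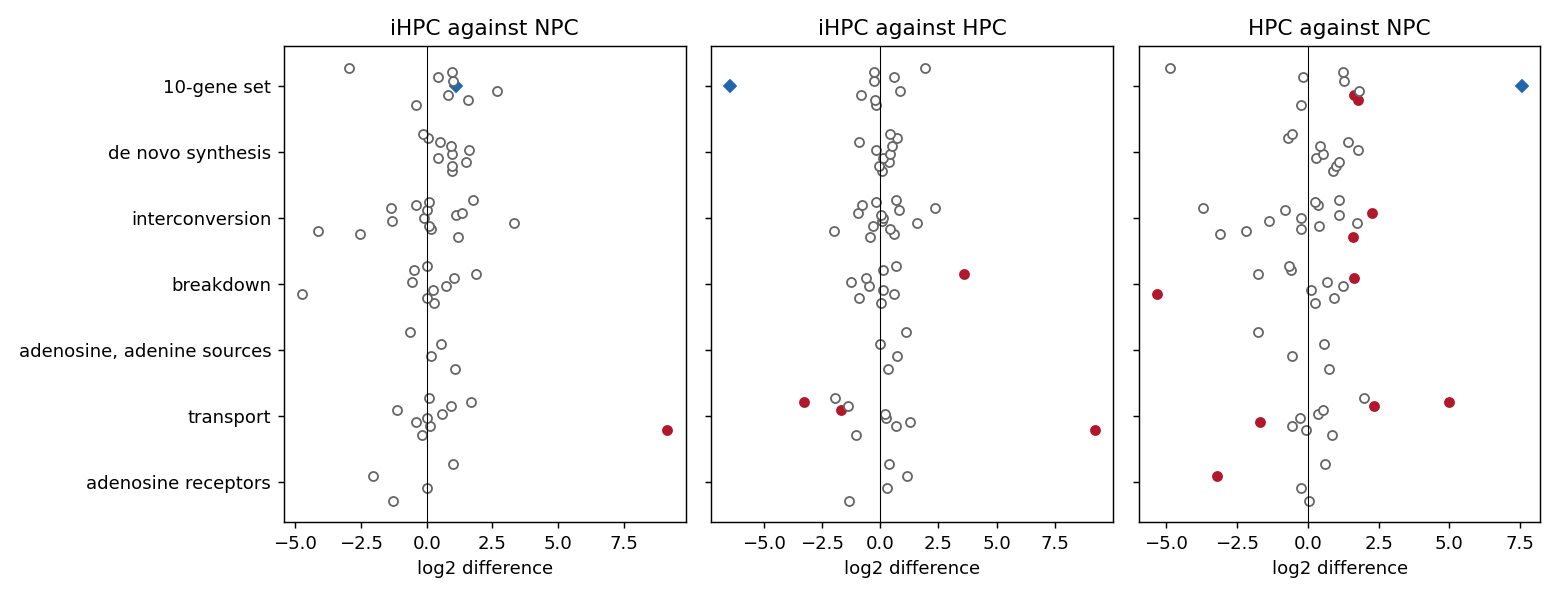
Log2 difference of each tested gene of 7 purine gene lists in the 3 comparisons. Filled red points were called by limma at an adjusted p under 0.05, open points were not, and blue diamonds are Hprt, given without a test; Slc17a1 lies at 9.15 and 9.20 on the right of the panels for iHPC.

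The other genes of purine metabolism were read from 6 lists of 61 genes, of which 57 had a probe and 53 were tested. Of these 53, 1 was called higher and 0 lower in iHPC than in NPC (16 at an unadjusted p under 0.05, or 30.2%, against 24.4% of all genes). Against HPC, 2 were higher and 2 lower in iHPC, 7.55% beside 5.43% of all genes. In HPC, 5 were higher and 3 lower than in NPC, 15.1% beside 15.7% of all genes. The medians of 0.16, 0.12 and 0.37 stood beside 0.03, 0.05 and -0.03 for all genes.

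De novo synthesis held 10 genes, from Prps1 and Ppat to Atic, and all were well above background on every array. By limma, 0 were called in any comparison. At an unadjusted p under 0.05 there were 0 for iHPC against NPC (24.4% of all genes), 1 for iHPC against HPC (27.6% of all genes) and 2 for HPC against NPC (36.4% of all genes). Their median log2 difference was 0.95 for iHPC over NPC, 0.25 for iHPC over HPC and 0.72 for HPC over NPC. Of the 10, 9 had a difference above 0 in iHPC over NPC, beside 9941 of all 19310 genes tested. Prpsap2, a protein associated with the Prps synthetases, was at -0.15. Ppat, which catalyses the committed step, read 1.88 in HB1, 0.75 in HNG2, 1.23 in iHPC 9F, 1.07 in iHPC 10F and -0.46 in NPC. Its differences of 1.61 and 1.77 from NPC had adjusted p of 0.208 and 0.120 by limma.

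Among 15 tested genes that interconvert purine nucleotides, Adss and Dck were called, both higher in HPC than in NPC. That was 13.3%, beside 15.7% of all genes in this comparison. Adss makes adenylosuccinate on the way from inosine to adenine nucleotides, and Dck phosphorylates deoxynucleosides. Adss read 1.83 in HB1, 1.82 in HNG2, 1.43 in iHPC 9F, 1.38 in iHPC 10F and 0.23 in NPC, a difference of 1.59 between HPC and NPC (SE 0.23, adjusted p = 0.0311 by limma). Dck read 1.47, 1.74, 0.64, 0.70 and -0.66, a difference of 2.27 (SE 0.26, adjusted p = 0.0219). Both genes thus had the HPC, iHPC, NPC order of Aprt, which 14.5% of all tested genes had. In the comparisons of iHPC with NPC and with HPC, 0 of the 15 were called, with 7 and 3 at an unadjusted p under 0.05, or 46.7% and 20.0%, against 24.4% and 27.6% of all genes.

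Of 10 tested genes of nucleotide and urate breakdown, Nt5c3, Nt5e and Entpd1 were called in 1 comparison each. The calls made up 20.0% for HPC against NPC and 10.0% for iHPC against HPC, beside 15.7% and 5.43% of all genes. Nt5c3, a cytosolic nucleotidase, lay at 2.97 ± 0.19 in HPC and 2.34 ± 0.02 in iHPC (n = 2 each) and at 1.32 in NPC, and was 1.65 higher in HPC than in NPC (adjusted p = 0.0365 by limma). Nt5e, the surface enzyme CD73 that releases adenosine, read -2.25 in HB1, -3.32 in HNG2, 1.08 in iHPC 9F, 0.57 in iHPC 10F and -1.03 in NPC. It was 3.61 higher in iHPC than in HPC (SE 0.47, adjusted p = 0.0473). Entpd1, the surface enzyme CD39 that acts before it on extracellular ATP, was measured in NPC alone, at -2.25. It was at least 16.6-fold lower in HPC (adjusted p = 0.0273) and at least 9.05-fold lower in iHPC (adjusted p = 0.0544). With normexp these were 4.77-fold and 3.2-fold. The difference of iHPC from NPC passed the threshold by limma with normexp (adjusted p = 0.0368), the mean of the probes (0.0287) and the intensity trend (0.0499). It did not with quantile normalization (0.0689), median centring (0.0536) or no filter on dim probes (0.082). Entpd1 passed the filter only through NPC, so its p-values rest on readings not well above background elsewhere and are a description. In iHPC against NPC 0 of the 10 were called, with 3 at an unadjusted p under 0.05, or 30.0%, beside 24.4% of all genes.

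The transporters held the largest difference of the lists in both comparisons with iHPC, that of Slc17a1. Of 10 tested, 10.0%, 30.0% and 30.0% were called in iHPC against NPC, iHPC against HPC and HPC against NPC. The shares of all genes were 5.64%, 5.43% and 15.7%. Slc17a1, an anion and urate transporter of kidney and liver, read 1.96 in iHPC 9F and 1.68 in iHPC 10F and was not well above background on the other arrays. It was at least 170-fold higher in iHPC than in NPC (adjusted p = 0.036 by limma) and at least 279-fold higher than in HPC (adjusted p = 0.0278). With normexp these differences were 30.7-fold and 42.3-fold, under the bounds. Slc2a9, a urate transporter of liver and kidney, was measured only in HPC, at -2.88 in HB1 and -2.49 in HNG2. HPC exceeded NPC at least 7.51-fold (adjusted p = 0.0114) and iHPC at least 6.71-fold (adjusted p = 0.0231), and with normexp 2.06-fold and 2.02-fold. Among the equilibrative nucleoside transporters, Slc29a4 was 2.34 higher in HPC than in NPC (adjusted p = 0.0191). Slc29a3 was 1.67 lower in iHPC than in HPC (adjusted p = 0.0371 by limma). Its difference of iHPC from NPC, the parental line, was -1.12 (adjusted p = 0.0923). The concentrative transporter Slc28a3 was at least 2.69-fold lower in HPC than in NPC (adjusted p = 0.0479), or 1.83-fold with normexp. Slc17a1 passed the filter only through iHPC, Slc2a9 only through HPC and Slc28a3 only through NPC. The p-values of these genes set bright readings against others not well above background and are given as a description.

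Of the 4 adenosine receptors, only Adora2b was called, 3.19 lower in HPC than in NPC (SE 0.46, adjusted p = 0.0314 by limma). That was 25.0%, beside 15.7% of all genes in this comparison. In the comparisons of iHPC with NPC and with HPC 0 of the 4 were called. In each, 1 was at an unadjusted p under 0.05, or 25.0%, beside 24.4% and 27.6% of all genes. Adora2b read -5.11 in HB1, -4.32 in HNG2, -3.38 in iHPC 9F, -3.74 in iHPC 10F and -1.52 in NPC. Of the 4 genes that supply adenosine or adenine, 0 were called in any comparison. In each, 1 was at an unadjusted p under 0.05, or 25.0%. The shares of all genes were 24.4% for iHPC against NPC, 27.6% for iHPC against HPC and 36.4% for HPC against NPC. Mtap, which yields the adenine that Aprt uses, read -1.35 in HB1, 0.64 in HNG2, 0.76 in both iHPC and 1.39 in NPC. With no filter on dim probes, the calls of Adss (adjusted p = 0.0743), Nt5c3 (0.0783), Nt5e (0.0689), Slc29a3 (0.0806), Slc28a3 (0.0929), Adora2b (0.0511) and Slc17a1 against NPC (0.0533) were lost. Quantile normalization also ended that of Adora2b (0.0528), the intensity trend those of Slc29a3 (0.0524) and Slc28a3 (0.0974), and median centring that of Slc28a3 (0.0515). As for Aprt and Adk, none of the calls in these lists held without 1 of the iHPC arrays, when 0 of all genes were called in each comparison.

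In the comparisons with HPC, the other genes commonly used as references gave no difference of the size seen for Hprt. Of 15 listed, 14 had a probe and were tested, and limma called 0 in any comparison. At an unadjusted p under 0.05 there were 2, 1 and 1, beside 24.4%, 27.6% and 36.4% of all genes. The log2 differences of the 14 ran from -1.13 to 1.69 for iHPC against NPC, from -1.01 to 1.95 for iHPC against HPC and from -2.89 to 1.07 for HPC against NPC. B2m, the light chain of MHC class I, gave the highest of these against HPC and the lowest in HPC against NPC, at 2.68 in HB1, 4.05 in HNG2, 5.45 in iHPC 9F, 5.18 in iHPC 10F and 6.26 in NPC. Tbp, the TATA-binding protein, stayed between -1.81 and -1.49 on all arrays.

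**Figure D4:**
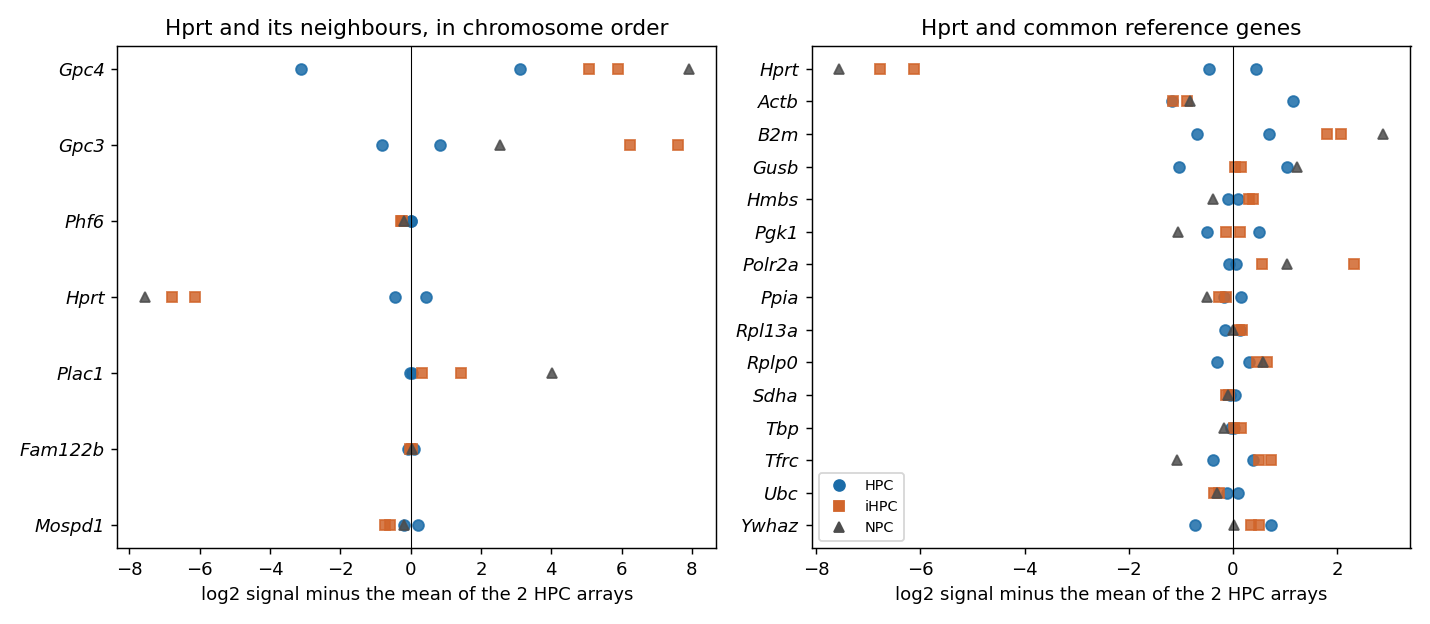
Log2 signal of each array minus the mean of the 2 HPC arrays, for Hprt and its tested neighbours on the X chromosome (left, in chromosome order) and for Hprt and 14 reference genes (right). Circles are HPC, squares iHPC and the triangle NPC; Hprt lies at -7.57 in NPC, whereas every array of Phf6 and Fam122b lies close to 0.

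The nearest genes on the X chromosome did not follow Hprt. Of the 5 protein-coding RefSeq genes on each side, 9 had a probe and 6 were tested; Ccdc160 had no probe, and 1700080O16Rik, Fam122c and Etd did not pass the filter. Phf6, the next gene before Hprt, read 1.58 in both HPC lines, 1.32 in both iHPC cultures and 1.38 in NPC. Fam122b, the second gene after it, lay between -3.36 and -3.19 on all arrays, with differences near 0 whose sign turned with the normalization. Mospd1 read 2.00, 1.60, 1.06, 1.21 and 1.61, and no comparison of Phf6, Fam122b or Mospd1 passed the threshold by limma.

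Plac1, a placental gene next after Hprt, ran the other way. It read -5.39 in HB1, -5.44 in HNG2, -5.08 in iHPC 9F, -3.98 in iHPC 10F and -1.41 in NPC, and was 4.01 lower in HPC than in NPC (SE 0.55, adjusted p = 0.0291 by limma). Gpc3, the oncofetal proteoglycan glypican, was not well above background in HPC, and read 0.36 in iHPC 9F, -1.02 in iHPC 10F and -4.69 in NPC. It was at least 58.9-fold higher in iHPC than in HPC (adjusted p = 0.039). That bound was 36.5-fold without iHPC 9F and 94.9-fold without iHPC 10F, and the difference was 12.8-fold with normexp. Gpc4, its neighbour, read -8.29, -2.06, -0.10, 0.72 and 2.75, where the HB1 reading was not well above background. The calls for Plac1 and Gpc3 were lost without 1 of the iHPC arrays, as above. Over 433 X-linked genes tested, 6.93%, 7.16% and 18.7% were called in iHPC against NPC, iHPC against HPC and HPC against NPC. The shares over all genes were 5.64%, 5.43% and 15.7%.

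The 6 genes whose values on the 5 arrays were most like those of Hprt were, in alphabetical order, Dio3, Gata6, Nostrin, Pilra, Prdm16 and Shtn1. Likeness was the root mean square difference on the log2 scale after each gene was centred on its own mean over the 5 arrays, among all genes tested. Shtn1, a gene of axon polarity, was at 0.35 from Hprt and read 4.19 in HB1, 3.81 in HNG2, -2.46 in iHPC 9F, -1.31 in iHPC 10F and -3.36 in NPC. Gata6, an endoderm transcription factor, was at 0.36 and read 3.48, 2.21, -3.46, -3.78 and -5.11. Both were well above background on every array, as was Hprt. The other 4 were not well above background in iHPC or NPC, so their likeness rests on limits and is given no rank.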

How the data were processed

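RNA (0.25 µg per sample, per the labels' protocols) was hybridised to Agilent 1-colour arrays. The authors deposited an intensity for each spot. Agilent Feature Extraction 10.7.3.1 had corrected it for background and for spatial and multiplicative trends, with surrogates near background, per the file headers. The deposited series matrix equalled these intensities on 100% of spots. Here the deposited intensity was divided by the 75th percentile of its array (590.3 to 1074 in signal units) and put on the log2 scale. Control and outlier spots were left out and the spots of a probe averaged. A probe was well above background where at least 0.5 of its spots were. Of 41174 probes, 22951 were named by RefSeq accession (GRCm38.p6), 6659 by symbol, and 11564 kept the file's own name. Each gene took its probe with the highest mean. Probe coordinates are those of the files; exon or untranslated position was not analysed here.

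Differences were fitted with limma 3.58.1 in R 4.3.3 (lmFit, eBayes, two-sided) over 5 arrays and 3 groups, with 2 residual degrees of freedom and Benjamini-Hochberg adjustment over 19310 genes. An exact permutation test of 2 arrays against 2 cannot go below p = 0.333. The script was tested on simulated data. The text names every member, every called gene of the other purine and reference lists, the neighbours of Hprt and the 6 genes most like it; Ppat, Prpsap2, Mtap, B2m and Tbp were added after their values were seen. Members and lists were chosen with earlier results of these data known. Alternatives were other normalizations, background corrections, filters, probe summaries, models, a scan-day block and left-out arrays. The study's embryonic stem cell data and its line NSEB5-2C were not used here.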

Additional observations from a re-analysis of the deposited data

How the results depend on the processing

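In limits, 5 arrays with 2 residual degrees of freedom set the precision, and 1 array stands for NPC. The dim probes of Gda and Uox, and those of Xdh on the arrays other than NPC, sit near background. The direction of every Hprt difference held under every alternative run. Hprt was chosen on its levels on these same arrays, so this is a description and no support. No paired analysis was possible because each array is a different line or culture, so there are no pairs. All genes called for iHPC against NPC were 1090, and 305 with no filter, 492 with probes well above background on all arrays, and 6755 with only the 2 groups. The scan-day block repeats that last fit, and the fits without 1 array are given above. For iHPC against HPC they were 1048, and 2121 with normexp, 460 with no filter, 617 with all arrays above background, and 0 to 6992 without 1 array. For HPC against NPC they were 3023, and 4747 with normexp, 1643 with no filter, 0 with only the 2 groups (3889 at an unadjusted p under 0.05 by limma), and 0 to 9763 without 1 array. Higher and lower calls in HPC against NPC were 1290 and 1733, but 1875 and 1478 with median centring, which moved the median of all genes from -0.03 to 0.29, and 2023 and 2118 with the intensity trend. With all arrays above background they were 1196 and 1144. For iHPC against HPC they were 685 and 363, but 678 and 621 with median centring (median from 0.05 to -0.20), 715 and 559 with quantile normalization, and 347 and 113 with no filter. For iHPC against NPC the 540 and 550 became 187 and 118 with no filter.

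Members called for iHPC against NPC were 0, and 1 with normexp or the intensity trend (Adk), and 5 with only the 2 groups, a fit that the scan-day block repeats. For iHPC against HPC, without Hprt, they were 0, and 1 with normexp or the trend (Aprt), and 0 to 3 without 1 array. For HPC against NPC they were 2, and 4 with median centring, the mean of probes or the trend, 5 with normexp, 0 with no filter or only the 2 groups, and 0 to 5 without 1 array.

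Directions that reversed were all of differences that did not pass the threshold on all 5 arrays. With median centring, Phf6 (0.0070) and Fam122b (0.0278) turned in iHPC against NPC, Fam122b (-0.235) against HPC, and Ada (0.0706), Impdh2 (0.144), Slc17a1 (0.260) and Fam122b (0.263) in HPC against NPC. With quantile normalization, Fam122b turned to 0.0130, -0.206 and 0.219 in the 3 comparisons and Slc17a1 to 0.435 in HPC against NPC. Over the fits without 1 array, Entpd1 ran from -0.155 to 1.30 and Fam122b from -0.0726 to 0.0978 in iHPC against HPC. In HPC against NPC, Impdh2 ran from -0.566 to 0.229, Fam122b from -0.135 to 0.0353 and Mospd1 from -0.0102 to 0.387. Slc17a1, not well above background in either group, ran there from -1.13 without HB1 to 1.02 without HNG2. The cause was not tested.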
